A study of Homo sapiens with 4 samples.

Results

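The transcripts of the nuclear-encoded subunits of the respiratory chain were followed in H1299, a human cell line grown from a lung carcinoma of the non-small-cell type, after 48 h with 5 μM HgCl2 or with its solvent, 0.6% EtOH, alone. The genes were taken by their symbols: NDUFA, NDUFB, NDUFC, NDUFS and NDUFV for complex I, SDHA to SDHD for complex II, UQCR and CYC1 for complex III, COX4 to COX8 for complex IV and ATP5 for complex V, without the inhibitor ATP5IF1 and without pseudogenes. This gave 98 of 19926 protein-coding genes (61193 genes in all), with 749 listed transcripts. The symbol pattern also takes in 8 assembly factors (NDUFAF), which help to build complex I and are no part of it, and 2 read-through genes, and NDUFA4 was placed in complex IV, where it is known to belong. Each group has 2 columns of counts, labelled as replicates 1 and 2. The labels' treatment text gives 5 μM HgCl2 for all 4 samples, whereas the study's methods and the titles set the EtOH cells apart as the control without HgCl2.

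The counts added up to between 4720978 and 5053120 per column. The columns of a group differed by less than independent sampling of reads would give: the variance of their difference was 0.505 of the counting variance in EtOH and 0.516 in HgCl2, where independent draws of reads give about 1. Each group was therefore counted as 1 sample and no p-value is given. A difference is called when it is at least 2-fold, and its 95% interval covers counting error only, not the spread between cultures. Reads were counted per transcript and shared bases take few counts, so values are those of transcripts and not of genes. Some markers of the line differed between the groups. The epithelial keratin gene KRT8 had 53 and 58 counts in EtOH and 4 and 4 in HgCl2, and KRT18 23 and 24 against 18 and 31. VIM had 620 and 628 against 501 and 511, and MYC 23 and 22 against 2 and 2. HMGA2 had 34704 and 35108 against 94083 and 93809. Of the markers of other cells, PTPRC, CD3E and ALB were at 0, COL3A1 had 0 to 2 counts and PECAM1 1 to 5.

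The respiratory chain lies in the inner mitochondrial membrane. Complex I takes electrons from NADH and complex II from succinate, complex III passes them to cytochrome c and complex IV to oxygen, and the proton gradient made on the way drives ATP synthesis by complex V. Most subunits are encoded in the nucleus and imported, and the genes followed here are those. Tumour cells differ in how much of their ATP comes from this chain, and mercury is known to bind thiol groups of proteins.

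Part of the counts lay on transcripts that keep an intron. The junctions below are shown because they are the places where such a transcript runs on past the end of a coding exon. Capitals mark the last 20 bases of the exon, lower case the first 20 of the kept intron, and each intron starts with the usual gt. Sequence is from GRCh38, 5′ to 3′, with introns numbered on the canonical transcript of GENCODE 44, the model chosen as representative for the gene.
NDUFA10 ENST00000485344, intron 5 of 9, chr2:240014719-240014758 (minus strand): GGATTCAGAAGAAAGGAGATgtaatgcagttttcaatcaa
NDUFS1 ENST00000498520, intron 16 of 18, chr2:206127777-206127816 (minus strand): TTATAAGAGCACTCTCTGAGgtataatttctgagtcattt
ATP5F1C ENST00000472202, intron 4 of 9, chr10:7799175-7799214 (plus strand): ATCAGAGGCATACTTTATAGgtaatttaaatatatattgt
ATP5MC3 ENST00000497075, intron 4 of 4, chr2:175179037-175179076 (minus strand): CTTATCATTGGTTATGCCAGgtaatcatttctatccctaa
ATP5PD ENST00000580649, intron 4 of 5, chr17:75040072-75040111 (minus strand): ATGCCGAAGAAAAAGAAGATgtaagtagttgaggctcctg
In NDUFA10, ATP5MC3 and ATP5PD the whole intron, of 3042, 654 and 820 bases, is part of the transcript. The NDUFS1 and ATP5F1C transcripts end inside theirs, after 237 of 952 bases and 356 of 577 bases. Counts for each are given with their complex.

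Of the 98 genes, 81 had a count and 17 had 0 in all 4 columns. This share at 0, 17.3%, compares with 41.8% of all protein-coding genes. In 31 genes (31.6%, against 23.5% of all protein-coding genes) at least 1 transcript reached a mean of 30 counts, and these transcripts, 36 in number, are described one by one. The genes at 0 included widely expressed subunits, such as CYC1, the cytochrome c1 of complex III, UQCRC1, its core protein, and NDUFA11, NDUFA13, NDUFB7, NDUFB10, NDUFB11 and NDUFC1 of complex I. In complex IV the genes at 0 were COX4I2, COX6A2, COX6B2, COX7A1 and COX7B2, which are isoforms of muscle, lung or testis. In complex V they were ATP5MK and the read-through gene ATP5MF-PTCD1, and the last in complex I were NDUFAF2 and the read-through gene NDUFC2-KCTD14.

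**Figure D1:**
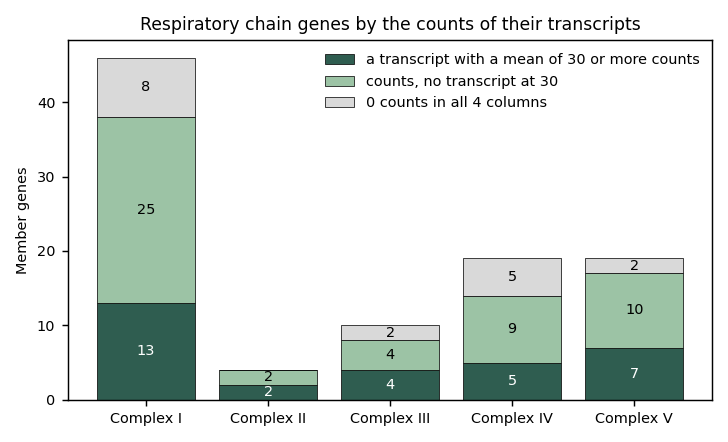
Number of member genes (vertical axis) in each complex (horizontal axis), split by whether a transcript reached a mean of 30 counts over the 4 columns, had fewer, or had 0 counts. A transcript at 30 exists for 13 of 46 genes of complex I, 2 of 4 of complex II, 4 of 10 of complex III, 5 of 19 of complex IV and 7 of 19 of complex V.

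Zero counts went with shared sequence. Of the 95 canonical transcripts listed, 59 had 0 counts. Of the 39 with no base that is theirs alone, 36 had 0 counts, and of the 23 with some such bases but fewer than 150, 20. Of the 33 with 150 or more, 3 had 0 counts and 17 reached 30. A gene at 0 is therefore listed at 0 and not read as silent.

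Among the 36 transcripts with a mean of 30 or more counts, 6 were at least 2-fold higher in HgCl2 and 4 at least 2-fold lower, and 26 differed by less. Over all 7107 transcripts at this depth, 15.5% were at least 2-fold higher and 9.53% lower. The median log2 fold change of the 36 was 0.06, beside 0.21 for all. The counting interval lay above 0 in 13, below 0 in 10 and spanned 0 in 13. Respiratory chain transcripts thus had no common direction. In bulk RNA, less of a transcript per cell and fewer cells that hold it cannot be told apart. The 4 lower ones were the canonical transcripts of NDUFA10, NDUFA8, UQCRB and COX5A. Of the 6 higher ones, 1 was canonical, that of ATP5PB. Among the 36, the median log2 fold change was -0.08 for the 20 canonical transcripts and 0.25 for the 16 others. Over all transcripts at this depth these medians were 0.11 and 0.43. Canonical transcripts thus had the lower median in the background as well, and this split is not particular to the respiratory chain.

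**Figure D2:**
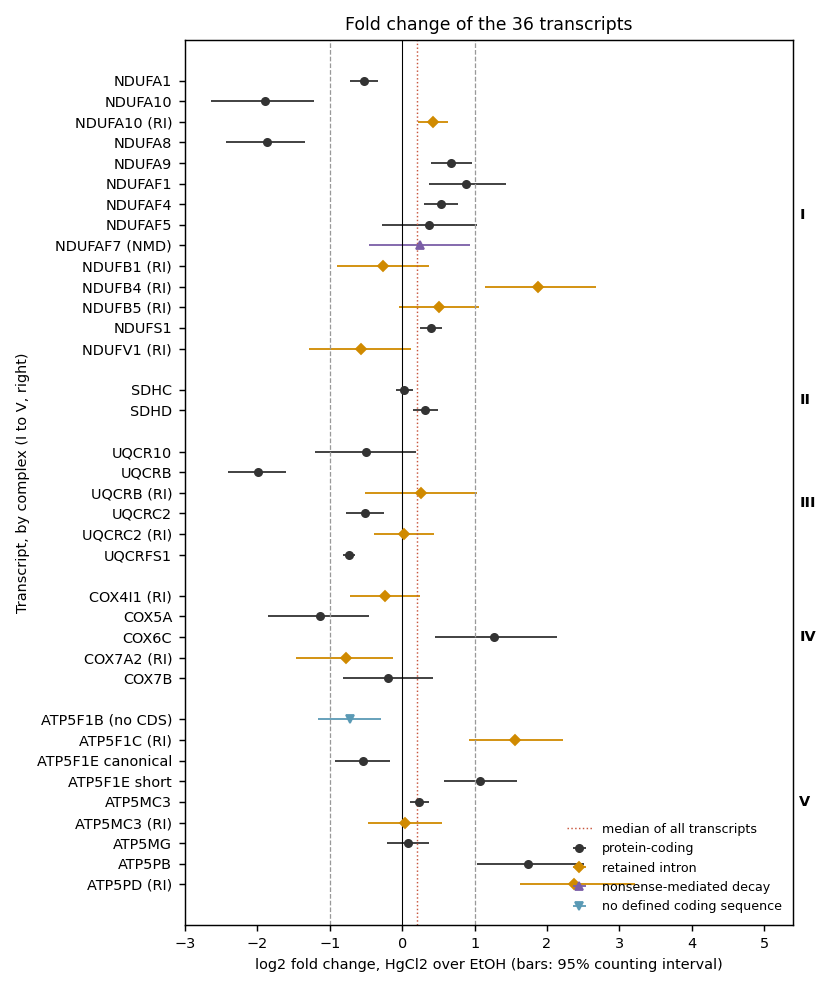
Log2 fold change of HgCl2 over EtOH (horizontal axis) for the 36 transcripts (rows, by complex), with 95% counting intervals, shaped and coloured by transcript type (RI, retained intron; NMD, nonsense-mediated decay; no CDS, no defined coding sequence). Dashed lines mark 2-fold and the dotted line the median of all transcripts, 0.21; values run from UQCRB at -1.99 to the ATP5PD retained intron transcript at 2.37.

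The members were also split by transcript type. Of 22 protein-coding transcripts, 3 were at least 2-fold higher (9.48% over all 4158 protein-coding transcripts) and 4 lower (8.51%), with a median of 0.05 beside 0.14. Of 12 retained intron transcripts, which keep intron sequence and encode no full protein, 3 were at least 2-fold higher (32.5% of all 1059) and 0 lower (6.7%), with a median of 0.15 beside 0.59. The rest were a transcript of NDUFAF7 marked for nonsense-mediated decay and an ATP5F1B transcript with no defined coding sequence. The higher retained intron transcripts of the respiratory chain, those of NDUFB4, ATP5F1C and ATP5PD, are thus read against a background in which such transcripts were often higher.

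**Figure D3:**
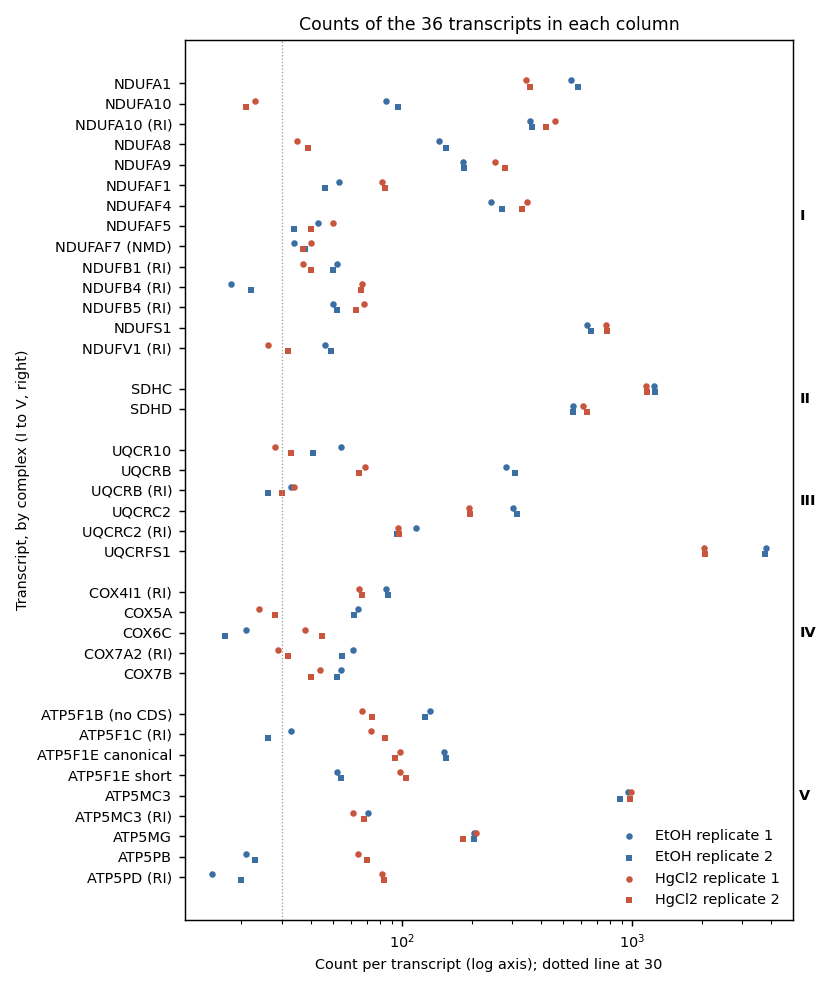
Counts (horizontal log axis) of each of the 36 transcripts (rows, by complex) in the 4 columns, EtOH in blue and HgCl2 in red, replicate 1 as circles and 2 as squares. The columns of a group lie close together, as for UQCRFS1 with 3787 and 3747 in EtOH and 2034 and 2070 in HgCl2.

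In complex I, the core subunit NDUFS1, which holds iron-sulphur clusters in the matrix arm, had most counts. Its canonical transcript had 633 and 663 counts in EtOH and 767 and 776 in HgCl2, a log2 fold change of 0.40 (0.24 to 0.55). The interval lay above 0, and the difference was under 2-fold. Another NDUFS1 transcript, ENST00000498520, which reads past the exon shown above, had 0 and 0 counts in EtOH and 41 and 40 in HgCl2. Against a floor of 3 counts per column it was at least 14.9-fold higher. It passed the filter of a mean FPKM above 1 through HgCl2 alone, so a high value in HgCl2 was a condition of its listing. The other core subunit at this depth, NDUFV1, which binds NADH and FMN, was measured by a retained intron transcript with 46, 49, 26 and 32 counts (EtOH 1 and 2, then HgCl2 1 and 2), and its interval spanned 0.

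NDUFA10, a supernumerary subunit of the membrane arm, split by transcript. Its canonical transcript had 85 and 96 counts in EtOH and 23 and 21 in HgCl2, a log2 fold change of -1.89 (-2.64 to -1.21). The retained intron transcript ENST00000485344, whose junction is shown above, had 359 and 366 counts in EtOH and 460 and 422 in HgCl2, a log2 fold change of 0.43 (0.22 to 0.63). The form with the intron was higher and the canonical form lower, beyond counting error in each. Other listed transcripts cover nearly all bases of both forms: the canonical form has 2 bases that no other transcript covers, and the other has 0. What part the counting of such shared bases has in this split was not tested.

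NDUFA8, a subunit with cysteine motifs on the intermembrane side, had 144 and 155 counts in EtOH and 35 and 39 in HgCl2. This is a log2 fold change of -1.87 (-2.43 to -1.34), and all 804 bases of the transcript are its own. NDUFA1, a small subunit of the membrane arm, had 543 and 580 counts in EtOH and 345 and 360 in HgCl2, a log2 fold change of -0.53 (-0.72 to -0.33). NDUFA9, which sits where the matrix arm meets the membrane arm, went the other way, with 183 and 185 counts in EtOH and 254 and 280 in HgCl2, a log2 fold change of 0.68 (0.40 to 0.96). So within the supernumerary subunits of complex I some were lower and some higher, beyond counting error in each of these 3. Part of the NDUFA9 transcript, 976 bases, lies over other genes.

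The NDUFB subunits, all of the membrane arm, were measured at this depth by retained intron transcripts only. That of NDUFB4 had 18 and 22 counts in EtOH and 67 and 66 in HgCl2, a log2 fold change of 1.87 (1.14 to 2.68). A protein-coding NDUFB4 transcript, ENST00000485064, had 18 and 17 counts against 11 and 8, with an interval that spanned 0 (-2.05 to 0.48). The pseudogene copies of NDUFB4 together had 26.5 counts in EtOH and 4.5 in HgCl2, and what part reads shared with them have in these values was not tested. NDUFB5 had 50 and 52 counts against 68 and 63, and NDUFB1 had 52 and 50 against 37 and 40. Both intervals spanned 0.

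Of the 8 assembly factors of complex I, 4 had a transcript at 30 counts, with log2 fold changes from 0.24 to 0.89. NDUFAF4 had 244 and 272 counts in EtOH and 347 and 330 in HgCl2, a log2 fold change of 0.53 (0.30 to 0.77). NDUFAF1, which works early in the building of the membrane arm, had 53 and 46 counts against 82 and 84, a log2 fold change of 0.89 (0.36 to 1.43). These were higher beyond counting error, under 2-fold except for NDUFAF1 on the deposited FPKM scale (1.07) and with no FPKM filter (1.03). The NDUFAF1 transcript has no base of its own. NDUFAF5, a modifier of a core subunit, had 43 and 34 counts against 50 and 40, and NDUFAF7 had 34 and 38 against 40 and 37. The intervals of these NDUFAF5 and NDUFAF7 transcripts spanned 0, and 265 bases of the NDUFAF7 transcript lie opposite PRKD3. The NDUFAF5 transcript ENST00000476124, with no defined coding sequence, had 1 and 0 counts in EtOH and 25 and 29 in HgCl2. Its log2 fold change was 5.57 with an interval of 2.56 to 15.93. It passed the FPKM filter through HgCl2 alone, so this fold is not independent of the filter. The NDUFAF6 transcript ENST00000521840, also under 30 counts, went the other way, with 49 and 46 counts in EtOH and 6 and 5 in HgCl2 (log2 fold change -2.94).

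Complex II, which oxidises succinate, was measured by its membrane anchors SDHC and SDHD. SDHC had 1237 and 1256 counts in EtOH and 1144 and 1157 in HgCl2, a log2 fold change of 0.03 (-0.09 to 0.14). On the scale used here this was close to no difference, although the raw counts were lower in the smaller HgCl2 libraries. SDHD had 553 and 549 counts against 609 and 637, a log2 fold change of 0.32 (0.15 to 0.49). It was above SDHC, near the median of all transcripts. No transcript of the catalytic subunits SDHA and SDHB reached 30 counts.

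In complex III all 4 protein-coding transcripts were below 0, with log2 fold changes from -1.99 to -0.49, and 1 of them was at least 2-fold lower. Over all 4158 protein-coding transcripts at this depth, 1712 were below 0. UQCRFS1, the Rieske iron-sulphur protein that passes electrons to cytochrome c1, had more counts than any other member, 3787 and 3747 in EtOH and 2034 and 2070 in HgCl2. It was 1.66-fold lower, a log2 fold change of -0.73 (-0.81 to -0.65), and its 3086 bases are its own. Its pseudogene copies had 119.5 counts in EtOH and 35.5 in HgCl2. UQCRB, a small subunit at the ubiquinone site, had 282 and 308 counts against 69 and 65, a log2 fold change of -1.99 (-2.40 to -1.61), and was the lowest of all 36. Its pseudogene copies went the other way, with 69 counts in EtOH and 151.5 in HgCl2, and their part in the difference was not tested.

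UQCRC2, a core protein of complex III, had 302 and 315 counts in EtOH and 195 and 196 in HgCl2, a log2 fold change of -0.51 (-0.78 to -0.25). UQCR10, another small subunit, had 54 and 41 counts against 28 and 33, with an interval that spanned 0 (-1.20 to 0.19). The retained intron transcripts of UQCRB (33, 26, 34 and 30 counts) and of UQCRC2 (115, 95, 96 and 97 counts) had log2 fold changes of 0.26 and 0.02. Both intervals spanned 0. Under 30 counts, a shorter UQCRC2 retained intron transcript, ENST00000561798, was lower, with 27 and 31 counts against 7 and 6. A retained intron transcript of the small subunit UQCRQ, ENST00000498309, had 25 and 30 counts against 9 and 11, and its canonical transcript 13 and 11 against 22 and 17. The canonical transcript of UQCR11, also a small subunit, had 38 and 30 counts against 3 and 3.

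Complex IV, the cytochrome c oxidase, held few counts. COX5A, a subunit on the matrix side, had 64 and 62 counts in EtOH and 24 and 28 in HgCl2, a log2 fold change of -1.13 (-1.85 to -0.45), or -0.96 on the deposited FPKM scale. COX6C, by a transcript that is not canonical, had 21 and 17 counts against 38 and 45, which is 2.40-fold higher (log2 interval 0.45 to 2.14). These subunits were thus called in opposite directions, and COX6C, with a mean of 30.25 counts, lies just inside the limit. COX7A2, by a retained intron transcript, had 61 and 55 counts against 29 and 32, a log2 fold change of -0.78 (-1.47 to -0.13). COX7B had 54 and 52 against 44 and 40, while its transcript ENST00000475465 had 18 and 19 against 33 and 31 (log2 fold change 0.93). The retained intron transcript of COX4I1 had 85 and 87 against 65 and 67. The intervals of the canonical COX7B transcript and of COX4I1 spanned 0. The canonical transcript of NDUFA4, with a mean of 28 counts just outside the limit, had 47 and 39 counts in EtOH and 12 and 14 in HgCl2. The NDUFA4 transcript ENST00000492822, with no defined coding sequence, went the other way, with 7 and 6 against 24 and 34 (log2 fold change 2.28).

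In complex V, the ATP synthase, 4 of 9 transcripts were at least 2-fold higher and 0 lower, where 15.5% and 9.53% of all transcripts at this depth were. Of these 4, 2 are retained intron transcripts, a type of which 32.5% were higher. The retained intron transcript of ATP5PD, subunit d of the peripheral stalk, had 15 and 20 counts in EtOH and 82 and 83 in HgCl2, a log2 fold change of 2.37 (1.62 to 3.22). It was the highest of all 36, and 340 of its 2191 bases lie opposite KCTD2. ATP5PB, subunit b of the same stalk, had 21 and 23 counts against 64 and 70 on its canonical transcript, a log2 fold change of 1.74 (1.04 to 2.52). ATP5PD had no protein-coding transcript at this depth. The retained intron transcript of ATP5F1C, the gamma subunit that turns inside F1, had 33 and 26 counts against 73 and 84, a log2 fold change of 1.55 (0.93 to 2.22).

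ATP5F1E, the epsilon subunit of F1, split between protein-coding transcripts. The canonical one, ENST00000243997, had 152 and 155 counts in EtOH and 98 and 93 in HgCl2, a log2 fold change of -0.54 (-0.93 to -0.16). ENST00000395659 had 52 and 54 counts against 98 and 104, a log2 fold change of 1.07 (0.58 to 1.58), or 0.90 where 10 counts were asked in every column. These forms differed in opposite directions beyond counting error, as in NDUFA10. That was so in 2 of 5 genes with 2 or more transcripts at 30 counts. The share over all genes was not computed, so such splits are not read as particular to the respiratory chain. Of the canonical ATP5F1E transcript, 1180 bases lie opposite TUBB1.

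The other ATP synthase transcripts had varied values. ATP5MC3, which encodes subunit c of the rotor ring, had 957 and 881 counts in EtOH and 988 and 975 in HgCl2, a log2 fold change of 0.24 (0.11 to 0.37). Its retained intron transcript, shown above, had 71 and 68 counts against 61 and 68. ATP5MG, a membrane subunit, had 206 and 206 counts against 210 and 184. The intervals of the ATP5MC3 retained intron transcript and of this ATP5MG transcript spanned 0. ATP5MG also had a transcript with no defined coding sequence and no base of its own, with 3 and 1 counts in EtOH and 38 and 45 in HgCl2. Its log2 fold change was 4.43 (2.57 to 7.61), and it passed the FPKM filter through HgCl2 alone. ATP5F1B, the catalytic beta subunit, was measured only by a transcript with no defined coding sequence, with 132 and 125 counts against 67 and 74, a log2 fold change of -0.72 (-1.16 to -0.29).

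Levels per length were compared between genes on the deposited FPKM scale, as group means. The length behind the deposited values differs from that in GENCODE 44 for SDHC, UQCRB and ATP5MC3, so these are left out. Among the other 33 transcripts the highest were NDUFA1 at 243 in EtOH and 190 in HgCl2, UQCRFS1 at 222 and 151, and SDHD at 74.9 and 106. Their order was the same in both groups. On this scale 1 count is worth 1.25 times as much in HgCl2 as in EtOH.

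Summed by complex, the share of all counts, given as CPM (counts scaled to a common library total), was lower in HgCl2 for complexes III and IV. Complex III took 943 and 933 CPM in EtOH and 535 and 542 in HgCl2, a log2 ratio of -0.80. UQCRFS1 made up 79.5% and 80.6% of this, and without it complex III took 193 and 191 against 105 and 104, a log2 ratio of -0.88. The lower share of complex III was thus also present in its other transcripts. Complex IV took 97.4 and 90.8 against 74.3 and 79.0, a log2 ratio of -0.30, which on the deposited FPKM scale was 0.12. Complex I took 577 and 599 against 641 and 645, complex II 359 and 363 against 372 and 381, and complex V 361 and 349 against 403 and 402. These 3 were higher by log2 ratios of 0.13, 0.06 and 0.18. All members together took 2338 and 2335 CPM against 2026 and 2051, and without UQCRFS1 1588 and 1593 against 1595 and 1612.

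**Figure D4:**
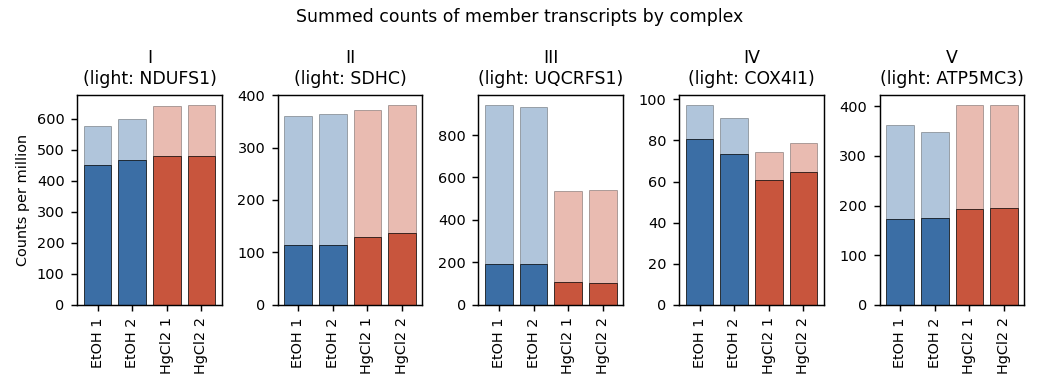
CPM (vertical axes, each from 0) of all member transcripts of a complex in each column, with the transcript of most counts as the light part of the bar. In complex III both parts are lower in HgCl2; in complexes I and V both are slightly higher.

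Retained intron transcripts held 11.3% (95% Clopper-Pearson interval 10.8 to 11.9) of member counts in EtOH and 15.1% (14.4 to 15.8) in HgCl2. Without UQCRFS1, whose counts are all protein-coding, the shares were 16.6% and 19.2%. Over all nuclear protein-coding genes they were 5.36% and 5.90%. In complex I the share was 22.1% in EtOH and 29.0% in HgCl2, with intervals that did not overlap. Much of this was NDUFA10 ENST00000485344, which has no base of its own. That transcript had a mean of 362.5 of 657 such counts in EtOH and 441 of 880.5 in HgCl2. The intervals of all nuclear protein-coding genes, 5.33 to 5.38 and 5.88 to 5.93, did not overlap either. The separation is thus not particular to complex I. In complex IV the share was 37.9% and 30.2%, in complex V 14.7% and 16.3% and in complex III 4.71% and 5.91%, each with overlapping intervals.

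**Figure D5:**
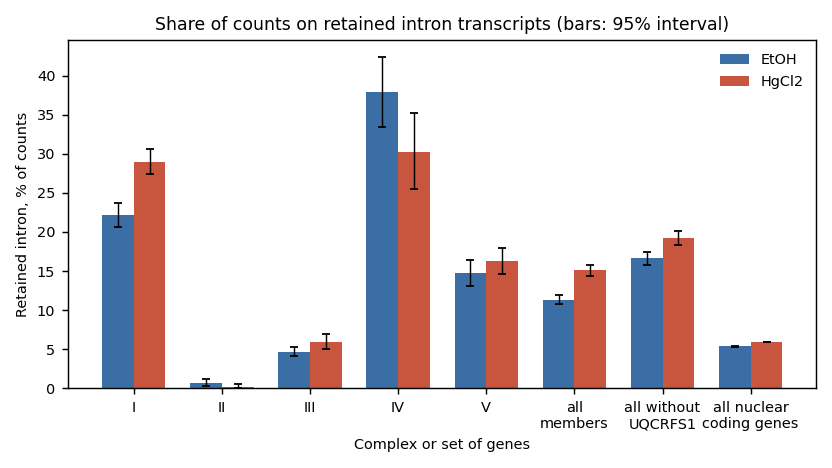
Percent of counts on retained intron transcripts (vertical axis) in EtOH and HgCl2, by complex, for all members with and without UQCRFS1, and for all nuclear protein-coding genes, with 95% Clopper-Pearson intervals. The intervals of complex I, 20.6 to 23.7 and 27.4 to 30.6, are apart, and so are those of all nuclear protein-coding genes, 5.33 to 5.38 and 5.88 to 5.93.

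Of the member transcripts that passed the FPKM filter with a mean under 30 counts, 83 in number, 20 were at least 2-fold higher and 48 lower, with a median log2 fold change of -1.30. Of the 10440 transcripts of all genes in this range, 21.7% were at least 2-fold higher and 50.9% lower, with a median of -1.04. These values rest on few counts. The 3 transcripts just under the limit were the canonical NDUFA4 transcript, given above, and retained intron transcripts of ATP5MF and NDUFA9. That of ATP5MF had 25 and 22 counts in EtOH and 34 and 35 in HgCl2. That of NDUFA9 had 14 and 18 against 39 and 39. Just inside the limit, besides COX6C, lay the UQCRB retained intron transcript with a mean of 30.75.

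Assembly and maturation factors, which insert cofactors and join subunits, were taken as a wider list of 72 genes that includes the NDUFAF genes. Of its 40 transcripts at 30 counts, 2 were at least 2-fold higher and 7 lower, with a median of 0.15, beside 15.5% and 9.53% and a median of 0.21 for all transcripts at this depth. Lower were UQCC1, which builds complex III, with 174 and 185 counts in EtOH and 29 and 21 in HgCl2 (log2 fold change -2.69), and COA3, which builds complex IV, with 136 and 135 against 28 and 24 (-2.23). The complex II factors SDHAF1 (-2.02) and SDHAF4 (-1.07), the ATP synthase inhibitor ATP5IF1 (-2.03), a COA5 transcript with no defined coding sequence (-1.14) and a retained intron transcript of TIMMDC1 (-1.01) were also lower. Higher were ATPAF1, which builds F1, with 237 and 235 counts against 472 and 498 (1.18), and an LRPPRC transcript marked for nonsense-mediated decay (2.78). Other factors of the same complexes went the other way under 2-fold, such as CMC2 of complex IV (0.97) and LYRM7 of complex III (0.56).

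Of 11 regulators of respiratory genes, 5 transcripts of 4 genes reached 30 counts. YY1, a transcription factor of many respiratory genes, had 1060 and 1071 counts against 1125 and 1141 (log2 fold change 0.23), and its retained intron transcript was higher (1.58). The coactivator PPARGC1A had 164 and 173 against 183 and 199 (0.32). PPARGC1B and SP1 had values of -0.10 and -0.11 with intervals that spanned 0.

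Promoters were searched because nuclear respiratory factors are known to bind many of these genes. A RefSeq promoter (GRCh38.p14) was found for 77 of the 98 genes, and the 250 bases before the start were searched on both strands for NRF1 (CGCATGCG or CGCACGCG), for the ETS family with GABP (CCGGAAG) and for YY1 (AAGATGGC). The NRF1 letters were in 20.8% of member promoters and 5.75% of all 15842 protein-coding promoters, the ETS letters in 23.4% and 11.8%, and the YY1 letters in 1.3% and 1.39%. By complex, NRF1 letters were in 17.5% for complex I, 33.3% of 3 for complex II, 14.3% for complex III, 7.14% for complex IV and 46.2% for complex V. Of the 25 promoters whose gene had a transcript at 30 counts, 3 held NRF1 letters and 5 ETS letters. Those of SDHD and ATP5F1C are shown as examples that hold them, as the 120 bases before the start, with the matches in capitals. A match is a description of the letters and not of binding.
SDHD, chr11:112086753-112086872 (plus strand): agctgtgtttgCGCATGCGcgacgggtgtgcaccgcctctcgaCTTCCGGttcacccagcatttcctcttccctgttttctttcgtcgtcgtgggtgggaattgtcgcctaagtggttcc
ATP5F1C, chr10:7788057-7788176 (plus strand): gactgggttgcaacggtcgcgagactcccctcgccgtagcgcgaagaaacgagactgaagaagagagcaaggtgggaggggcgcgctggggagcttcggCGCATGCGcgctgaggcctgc
SDHD holds an NRF1 and an ETS match and ATP5F1C an NRF1 match. On their transcripts SDHD had a log2 fold change of 0.32 and the ATP5F1C retained intron transcript 1.55, as given above. The NDUFA1 promoter held an ETS match, and its transcript had -0.53. The promoters of UQCRFS1 (-0.73) and ATP5PB (1.74) held no match. Nothing about binding follows from these examples, and whether matches go with fold changes was not tested.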

How the data were processed

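RNA-seq of H1299 cells with EtOH or HgCl2 was taken up from the deposited tables. For the deposited counts, the authors used Trim Galore 0.6.5 on the reads, STAR 2.5.4b with GRCh38 for alignment, and Rsubread 2.0.1 with the transcripts of Ensembl 98. The counting options are not given in the sources used here, and the paper calls the libraries directional although the kit named does not mark strand, so reads opposite a gene cannot be told apart. To obtain the deposited FPKM values, the authors scaled those counts in DESeq2 1.26.0.

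Log2 fold changes were computed with edgeR 4.0.16 (TMM, glmQLFit) over the 17547 transcripts whose mean FPKM passed 1 in either group, as tested on simulated data. A transcript can pass this filter through 1 group alone, which favours large differences at low counts in either direction. Intervals are Clopper-Pearson from the mean counts of a group. DESeq2 1.42.0 was an alternative. Fold changes against a group at 0 are bounds against 3 counts. The quasi-likelihood p-values are not used, because each group counts as 1 sample. Names, types and positions are from GENCODE 44, which held 98.3% of identifiers. Named transcripts are all members with a mean of 30 or more counts, other transcripts of their genes with 10 or more counts and another direction, those just under 30, and factors called at 2-fold. NDUFA4 ENST00000492822, UQCR11, UQCRQ, NDUFAF6, CMC2, LYRM7 and the regulators under 2-fold were chosen after their values were seen. So were the NDUFS1, NDUFAF5, ATP5MG and UQCRC2 transcripts of 10 to 30 counts that share their gene's direction. Members and lists were chosen with earlier results of these data known. A marker of the cell line that the list held is not reported here.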

Additional observations from a re-analysis of the deposited data

How the results depend on the processing

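No paired analysis was possible because each group counts as 1 sample, so no result comes from a test. Of the 4 lower transcripts, COX5A came under 2-fold on the deposited FPKM scale (-0.96) and with no FPKM filter (-0.99). Of the 6 higher ones, ATP5F1E ENST00000395659 did so when 10 counts were asked in every column (0.90). NDUFAF1 passed 2-fold on the FPKM scale (1.07) and with no FPKM filter (1.03). No sign of a called transcript changed under the scalings, filters and left-out columns run. SDHC, ATP5MG and the retained intron transcripts of UQCRC2 and ATP5MC3, all close to 0, changed sign under some of these settings. The columns of a group differ by less than independent draws of reads, so leaving out 1 does not show the spread between cultures. With a mean of 20 or more counts, 12 were higher and 8 lower, and with 100 or more, 0 and 1. Leaving out 1 column gave 5 to 10 higher and 4 to 6 lower, with 10 higher without EtOH replicate 1. The 30-count limit was applied to the remaining columns, so other transcripts could pass it. The median of all transcripts was 0.21 in the fit used and ran from 0.03 to 0.39 over the scalings and filters, and the median of the members was -0.15 relative to it, 0.03 without EtOH replicate 1, 0.02 with a mean of 20 or more counts and 0.04 with counts summed per gene. For the assembly and maturation factors, the FPKM scale gave 4 higher and 4 lower, and leaving out 1 column gave 1 to 6 higher and 4 to 10 lower: 6 higher and 4 lower without EtOH replicate 1, 5 higher without EtOH replicate 2 and 1 higher without HgCl2 replicate 1. On FPKM, the retained intron share of member values was 15.4% in EtOH and 21.3% in HgCl2. As a share of counts over transcripts with 30 or more counts it was 8.60% and 12.4%. On FPKM, the log2 ratios of complexes II, III, IV and V were 0.39, -0.58, 0.12 and 0.40. On CPM without the transcript with most counts, an alternative chosen after seeing the data, those of II and III were 0.22 and -0.88. Columns of a group agreed to 0.515 and 0.497 of the counting variance at 100 or more summed counts. Depth limits the transcripts near 30 counts, where counting intervals are widest.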
